A study of Mus musculus with 6 samples.

Results

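The 10 genes described here encode fibronectin, the proteoglycan versican and 8 matricellular proteins, in synovial fibroblasts treated with compound 33 or with its vehicle. They were chosen by name as rows of the count table: Fn1, Vcan, Postn, Tnc, Sparc, Spp1, Thbs1, Thbs2, Thbs3 and Comp. All 10 were found among 21033 gene symbols, and all 10 passed the filter on low counts that left 10124 genes for testing. The treated group is 3 libraries of primary synovial fibroblasts from ankle joints of hTNFtg mice, exposed to 10 µM compound 33 for 48 h. The comparison group is 3 libraries of the same kind of cells given DMSO. Both groups carry the human TNF transgene, which causes chronic arthritis in mice, and both were grown for 3 passages. The labels give no sex, age or number of animals. Nor do they state whether replicates came from separate cultures, so each p-value speaks only to the spread among libraries, which may be technical.

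Fibronectin and versican are parts of the provisional matrix that cells lay down in wounds and inflamed tissue. Fibronectin is a glycoprotein that cells bind through integrins and assemble into fibrils, and versican is a large chondroitin sulfate proteoglycan that binds hyaluronan. Matricellular proteins, such as periostin, tenascin-C, SPARC, osteopontin and the thrombospondins, are secreted into the matrix but act mainly by changing how cells attach to it and receive signals from it. Many of them are made in larger amounts during repair, fibrosis and arthritis, and synovial fibroblasts are among their sources in the joint.

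Compound 33 libraries held 1594052, 2384850 and 2073016 reads and DMSO libraries 1913730, 2179455 and 2897207 reads. Each library is a 3′ mRNA library, whose reads come from the end of the transcript, so a level is taken to follow the number of transcripts without a correction for gene length. Levels are counts per 1000000 reads of the scaled library size (CPM). The markers fixed for synovial fibroblasts were all detected, with a summed level of 10869 to 12875 CPM with compound 33 and 12073 to 13585 CPM with DMSO. Among markers of other cell types, Acan, Matn1 and Cnmd of cartilage, Ibsp, Sp7 and Dmp1 of bone, Dcstamp and Tnfrsf11a of osteoclasts and Pecam1 of endothelium had no read in any library. Sox9 and Col11a1 of the cartilage list, Runx2 of the bone list and Ctsk of the osteoclast list were present at mean levels of 106, 74.4, 23.6 and 289.9 CPM. The log2 fold change of Ctsk was 0.74, and its groups overlapped (edgeR adjusted p = 0.711). The summed level of the 6 endothelial markers was 5.15 to 9.54 CPM with compound 33 and 2.44 to 3.71 CPM with DMSO, without overlap, and none of them was abundant enough to test. The lists of the other cell types overlapped between groups in their summed level, but some single markers in them did not. Cspg4 of the smooth muscle or pericyte list had 33.0, 24.9 and 27.8 CPM with compound 33, against 21.7, 16.2 and 15.0 CPM with DMSO. Des of that list was also higher without overlap, at 4 to 7 reads against 1. Col11a1, Tnmd of the tenocyte list and Bglap of the bone list were lower without overlap, Bglap at 0 to 3 reads. Over all genes tested, 6.73% were lower and 6.64% higher without overlap. The part of such cells in the results was not tested. Over all genes, 3 of 10124 passed edgeR's quasi-likelihood test at an adjusted p under 0.05, and none of the 10 genes was among them.

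The start of transcription is one place where these genes differ in sequence. RefSeq promoters on GRCm38.p6, which is the build of mm10, were given for 7 of the 10 genes, with 10 promoters in all. Fn1, Thbs1 and Comp had no entry. The letters TATAAA on the sense strand, the core of a TATA box, stood in 4 of these 10 promoters and in 8.32% of all 32851 promoters of the same length. The matches in the 2 promoters of Tnc are the same site, seen through overlapping windows, so the 4 are not independent. The sites are shown because of their place relative to the start, with the match in capitals and each strand read 5′ to 3′ in the direction of the gene.
Postn, chr3:54361069-54361098, plus strand: agcccagagctaTATAAActcagctctcca
Spp1, chr5:104434888-104434917, plus strand: ctaaatgcagtcTATAAAtgaaaagggtag
Tnc, chr4:64047124-64047153, minus strand: ttttttcttcacTATAAAttgtatgcaaat
In Postn the match stood in 1 of 2 promoters. Its first base lay 26 bases before the annotated start of that promoter, where a TATA box usually stands. In Spp1 the match also stood in 1 of 2 promoters, 211 bases before the start. In Tnc it lay 126 or 205 bases before the start, depending on which of its annotated starts is used. The core element of the aryl hydrocarbon receptor, GCGTG on either strand, stood in 1 of the 10 promoters and in 32.4% of all promoters. That promoter was 1 of the 2 of Tnc. The letters TGANTCA of an AP-1 site and GGAATG of a TEAD site, both searched on either strand, stood in 0 of the 10, against 7.81% and 14.7% of all promoters. These are matches of letters in a window of 250 bases before to 50 bases after the start.

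Together the 10 genes took 1.04%, 1.03% and 0.757% of the counted reads in the compound 33 libraries, against 0.751%, 1.01% and 0.982% in the DMSO libraries, so the groups overlapped. Sparc and Fn1 alone made up 65.5% to 75.6% of these reads with compound 33 and 61.9% to 70.1% with DMSO. Sparc ranked 12th and Fn1 26th of all genes tested by mean level, while Comp and Thbs3 ranked 6126th and 8166th. The order by group mean was Sparc, Fn1, Thbs1, Spp1, Thbs2, Postn, Vcan, Tnc, Comp and Thbs3 with compound 33. With DMSO it was the same but for Postn, which stood in 4th place there, ahead of Spp1 and Thbs2, and in 6th place with compound 33. Postn, Spp1 and Thbs2 overlapped one another in the DMSO libraries, so their order there does not exceed the spread between libraries, and the same held for these 3 genes with compound 33. Vcan and Tnc overlapped in both groups. Sparc and Fn1 overlapped with compound 33 and were apart with DMSO. In compound 33 replicate 3 Fn1 was the most abundant of the 10, and in the other 5 libraries Sparc was.

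Vcan and Postn were the members whose libraries did not overlap between groups, and both were lower with compound 33. This was 2 of 10 members lower without overlap and 0 higher, where 6.73% of all genes tested were lower and 6.64% higher without overlap. The same 2 members had an unadjusted p under 0.05 at edgeR's quasi-likelihood test, where 3.23% of all genes were lower and 3.64% higher at that threshold. At an adjusted p under 0.05 it was 0 of 10, where 0.0296% of all genes passed. In DESeq2 and limma-voom 0 members passed too, and the same 2 lay under an unadjusted 0.05. Of the 10 log2 fold changes 6 were below 0, where 51.1% of all genes were, and their median was -0.16, against -0.01 over all genes tested. Both genes had already stood out in earlier results from these same libraries, so these counts are not independent of those results. Beside Vcan and Postn, of the 9 fibroblast markers, Thy1 and Pdgfrb differed between groups without overlap, in opposite directions. The other markers of that list overlapped between groups. Thy1 had 427, 525 and 507 CPM with compound 33, against 851, 871 and 574 CPM with DMSO, a log2 fold change of -0.65 (edgeR adjusted p = 0.605). Pdgfrb had 254, 303 and 264 CPM with compound 33, against 123, 206 and 205 CPM with DMSO, a log2 fold change of 0.62 (edgeR adjusted p = 0.671). Their part in the values of Vcan and Postn was not tested.

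**Figure D1:**
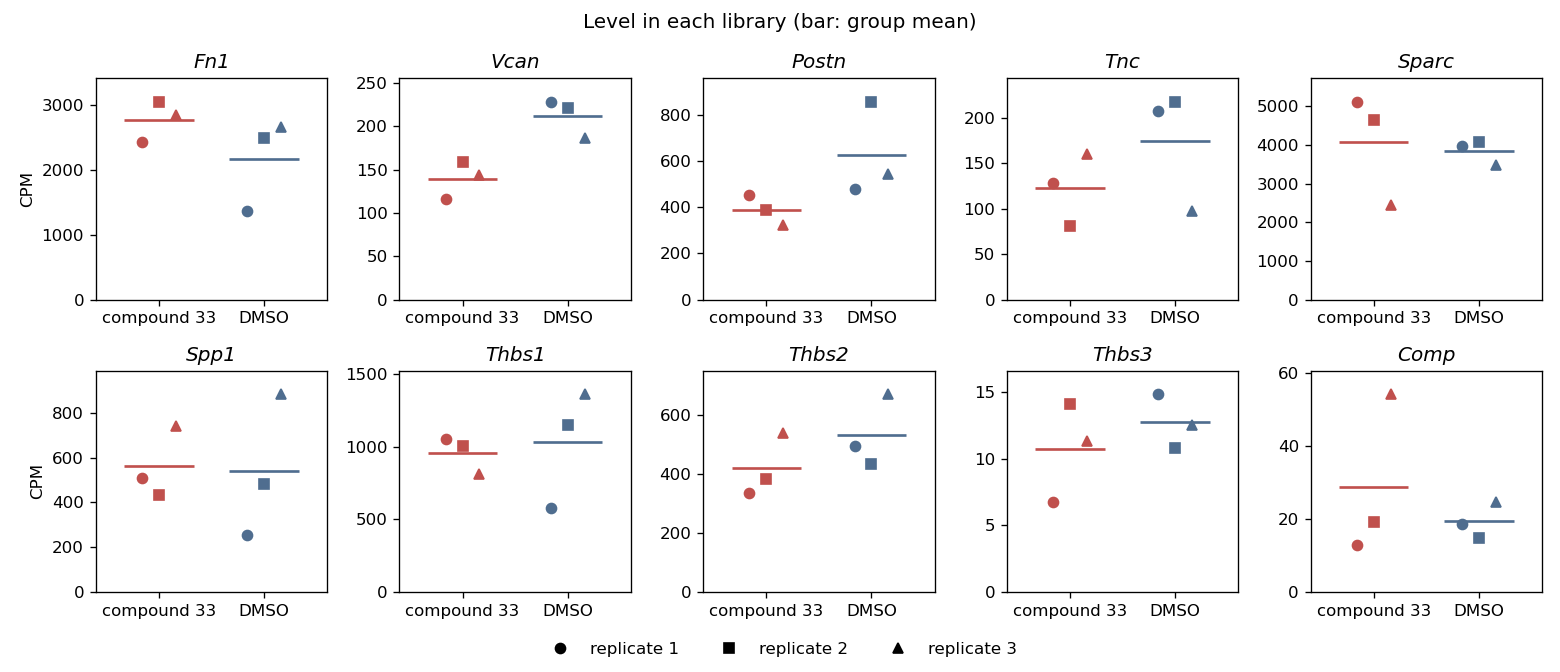
Level of each of the 10 genes in CPM (linear axis from 0, a separate scale per gene) in each compound 33 and DMSO library; symbols mark replicate numbers and bars the group means. The groups are apart for Vcan and Postn and overlap for the other 8 genes.

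Versican is cut by ADAMTS proteases during tissue remodelling and forms large aggregates with hyaluronan around cells. Vcan (ENSMUSG00000021614.16), on the minus strand of chromosome 13 at 89655312 to 89742509, had 117, 159 and 144 CPM with compound 33, against 228, 221 and 186 CPM with DMSO. Its highest compound 33 library, replicate 2, stayed below its lowest DMSO library, replicate 3. The means were 140 ± 21.3 CPM with compound 33 and 212 ± 22.5 CPM with DMSO (SD, n = 3 each), and the spread within groups was among the smaller ones of the 10 genes, with a coefficient of variation of 15.2% and 10.6%. On the log2 scale the change was -0.60 (SE 0.21, 95% interval -1.05 to -0.15), and edgeR's adjusted p was 0.606. With each library left out in turn it ran from -0.70 to -0.49. Leaving out compound 33 replicate 1 was the 1 case of 6 in which the unadjusted p of Vcan was above 0.05. The annotation holds 8 protein-coding transcripts of Vcan, of which 1 ends within 100 bases of the last position of any of them. Counts per gene do not tell the splice forms of Vcan apart.

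Periostin binds collagen and fibronectin and signals through integrins, and it is a common marker of fibroblasts active in matrix production. Postn (ENSMUSG00000027750.16), whose promoter match is shown above, lies on the plus strand of chromosome 3 at 54361109 to 54391037. It had 452, 386 and 322 CPM with compound 33, against 477, 854 and 542 CPM with DMSO. The gap between groups was narrow, with compound 33 replicate 1 just under DMSO replicate 1, and DMSO replicate 2 stood well above the other libraries. The means were 387 ± 64.8 CPM with compound 33 and 625 ± 202 CPM with DMSO (SD, n = 3 each). Its log2 fold change of -0.69 (SE 0.25, 95% interval -1.24 to -0.15) was the lowest of the 10 genes, with an adjusted p of 0.649 by edgeR. Without DMSO replicate 2 it was -0.39, and without DMSO replicate 1 it was -0.85. The unadjusted p was above 0.05 without DMSO replicate 2, without compound 33 replicate 2 and without compound 33 replicate 3.

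In the authors' deposited table, Postn has a log2 fold change of -0.69 with an adjusted p of 0.532, and Vcan -0.60 with an adjusted p of 0.585. In the authors' deposited table the adjusted p of the other 8 genes is 0.999.

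Fibronectin is the scaffold on which several of the other proteins are deposited. Fn1 (ENSMUSG00000026193.15), on the minus strand of chromosome 1 at 71585520 to 71653200, had 2421, 3041 and 2842 CPM with compound 33, against 1364, 2489.6 and 2659 CPM with DMSO. DMSO replicate 1 was far below the other 5 libraries, and the other DMSO libraries lay within the range of the compound 33 libraries. The means were 2768 ± 317 CPM with compound 33 and 2171 ± 704 CPM with DMSO (SD, n = 3 each). Fn1 had a log2 fold change of 0.35 (95% interval -0.22 to 0.92, edgeR adjusted p = 0.881) with all libraries and 0.11 without DMSO replicate 1. The annotation holds 9 protein-coding transcripts of Fn1, of which 7 end within 100 bases of the last position of any of them. Forms with and without the extra domains that mark cellular fibronectin were not separated.

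Levels of Vcan and Postn were also set against Fn1, as a description added after the data were seen. This ratio uses raw reads of 1 library at a time and needs no library scaling, and it restates in part that Fn1 ran higher and both genes lower with compound 33. Postn had 187, 127 and 113 reads per 1000 reads of Fn1 with compound 33, against 349.8, 343 and 204 with DMSO. Vcan had 48.2, 52.2 and 50.5 reads per 1000 reads of Fn1 with compound 33, against 167, 89.0 and 70.0 with DMSO. The groups did not overlap for these 2 of the other 9 genes, and for all genes tested 14.4% were lower and 0.662% higher in this ratio without overlap, so lower ratios to Fn1 were common. The mean log2 difference of the ratio was -1.06 for Postn and -1.01 for Vcan, and the lower Fn1 level of DMSO replicate 1 enters both: without that library they were -0.93 and -0.65.

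Tenascin-C, a large oligomeric protein made at sites of injury and an activator of innate immune receptors, had the next lowest fold change. Tnc (ENSMUSG00000028364.15), on the minus strand of chromosome 4 at 63959785 to 64047015, had 128, 80.4 and 160.1 CPM with compound 33, against 207, 217 and 97.8 CPM with DMSO. DMSO replicate 3 lay among the compound 33 libraries, and the other DMSO libraries lay above them all. Tnc changed by -0.50 on the log2 scale (SE 0.32, 95% interval -1.19 to 0.19) with an adjusted p of 0.829 by edgeR. Without DMSO replicate 3 it was -0.79, while it was -0.30 without DMSO replicate 2 and -0.26 without compound 33 replicate 2.

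SPARC, also called osteonectin, binds collagen and takes part in the assembly of collagen fibrils. Sparc (ENSMUSG00000018593.13), on the minus strand of chromosome 11 at 55394500 to 55423183, had 5105, 4647 and 2449 CPM with compound 33, against 3983, 4077 and 3473 CPM with DMSO. The compound 33 libraries enclosed the DMSO range, with replicate 3 the lowest and replicates 1 and 2 the highest of all 6. Its log2 fold change was 0.08 (95% interval -0.51 to 0.67, edgeR adjusted p = 0.973). Leaving out compound 33 replicate 1 gave -0.12 and leaving out compound 33 replicate 3 gave 0.35, and the sign depended on single libraries. Of 6 protein-coding transcripts of Sparc, 2 end within 100 bases of the last position of any of them.

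Osteopontin is a phosphorylated glycoprotein and cytokine of bone, macrophages and inflamed joints. Spp1 (ENSMUSG00000029304.14), on the plus strand of chromosome 5 at 104435118 to 104441050, had 508, 432 and 743 CPM with compound 33, against 254, 481 and 882 CPM with DMSO. DMSO held both the lowest and the highest library, a 3.47-fold range, and the compound 33 libraries lay within it. Compared between groups, the log2 fold change was 0.06 (95% interval -0.76 to 0.87, edgeR adjusted p = 0.985). Single libraries set its sign: it became -0.28 when DMSO replicate 1 was left out and 0.61 when DMSO replicate 3 was. Among the markers of macrophages, all 10 had at least 1 read, and their summed level ran from 53.9 to 110 CPM with compound 33 and from 66.8 to 141 CPM with DMSO. Lyz2 and Cd14 were the only macrophage markers abundant enough to test. Lyz2 was highest in replicate 3 of each group, as Spp1 was, at 72.1 CPM with compound 33 and 104 CPM with DMSO. Cd14 was not, with 20.8, 14.9 and 19.0 CPM with compound 33 and 19.1, 38.8 and 19.8 CPM with DMSO. Csf1r and C1qa, too low to test, were also highest in replicate 3 of each group. In that replicate Csf1r had 8 reads with compound 33 and 10 with DMSO, and C1qa had 10 and 7. Adgre1 and Ptprc, which define macrophages and leukocytes, stayed at 0 to 0.696 CPM and 0 to 1.39 CPM across all libraries, each highest in DMSO replicate 3. With compound 33 neither was highest in replicate 3. Cd68, Itgam, Mrc1 and Fcgr1 were not highest in replicate 3 of both groups. The part of other cells in the spread of Spp1 was not tested. In bulk samples fewer cells of a type and less RNA per cell cannot be told apart.

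**Figure D2:**
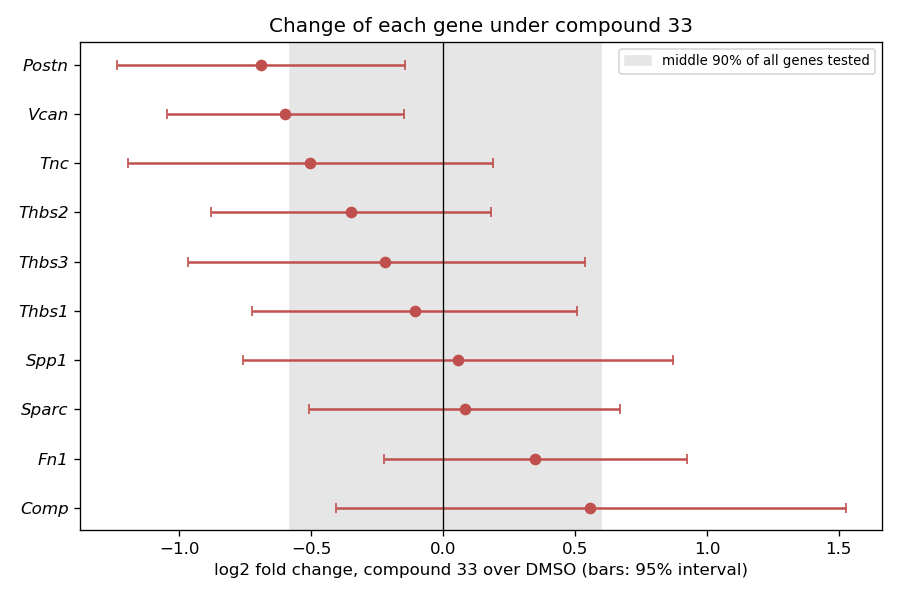
Log2 fold change of each gene, compound 33 over DMSO, from edgeR's fit to all genes; points are estimates, bars 95% intervals, and the grey band holds the middle 90% of all 10124 genes tested, from -0.58 to 0.60. The intervals of Postn and Vcan lie below 0, and those of the other 8 genes include it.

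The thrombospondins are oligomeric calcium-binding glycoproteins of 2 kinds. Thrombospondin 1 and 2 inhibit angiogenesis, bind CD36 and CD47, and thrombospondin 1 activates latent TGF-β. Thbs1 (ENSMUSG00000040152.8), on the plus strand of chromosome 2 at 118111876 to 118127133, had 1052, 1007 and 812 CPM with compound 33, against 580.1, 1152 and 1361 CPM with DMSO. The DMSO libraries lay on both sides of the compound 33 libraries. Thbs1 had a log2 fold change of -0.11 (95% interval -0.72 to 0.51, edgeR adjusted p = 0.964) for all libraries. It became -0.39 when DMSO replicate 1 was left out and 0.14 when DMSO replicate 3 was.

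Thbs2 (ENSMUSG00000023885.9), on the minus strand of chromosome 17 at 14665500 to 14694235, had 335, 383 and 539 CPM with compound 33, against 496, 434 and 671 CPM with DMSO. Compound 33 replicates 1 and 2 were below all DMSO libraries, and compound 33 replicate 3 was above 2 of them. The log2 fold change was -0.35 (95% interval -0.88 to 0.18, edgeR adjusted p = 0.863). It was -0.15 without DMSO replicate 3 and -0.21 without compound 33 replicate 1. Without compound 33 replicate 3 it was -0.56, the only case of 6 in which the unadjusted p lay under 0.05. Reads of Thbs1 outnumbered those of Thbs2 in every library, by 1.50 to 3.14 times with compound 33 and by 1.17 to 2.65 times with DMSO.

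Thrombospondin 3 and COMP, the cartilage oligomeric matrix protein, belong to the pentameric kind and lack the anti-angiogenic domains of thrombospondin 1 and 2. Comp (ENSMUSG00000031849.9), on the plus strand of chromosome 8 at 70373558 to 70382066, had 12.8, 19.1 and 54.0 CPM with compound 33, against 18.6, 14.9 and 24.7 CPM with DMSO. Its counts were 21, 46 and 105 reads with compound 33 and 35, 33 and 71 reads with DMSO, and compound 33 replicate 3 stood above the rest. The log2 fold change was 0.56 (SE 0.45, 95% interval -0.41 to 1.53, edgeR adjusted p = 0.888) with all libraries. Leaving out compound 33 replicate 3 turned it to -0.27. Leaving out compound 33 replicate 1 gave 0.89, with an unadjusted p just under 0.05. Of 10 cartilage markers Acan, Matn1 and Cnmd had no read, and the summed level of the list was 169 to 185 CPM with compound 33 and 183 to 225 CPM with DMSO. Its 2 most abundant members did not follow Comp: Sox9 had 98.4, 116 and 95.7 CPM with compound 33, against 59.4, 144 and 123 CPM with DMSO. Col11a1 had 67.2, 43.5 and 65.4 CPM with compound 33, against 115, 70.4 and 85.6 CPM with DMSO. Col10a1 was highest in compound 33 replicate 3, at 11.3 CPM. So were Col2a1, Matn3 and Hapln1, too low to test, at 5.66, 3.60 and 2.57 CPM (11, 7 and 5 reads). Col9a1 had 1 read there and 1 in DMSO replicate 1. The 4 tenocyte markers, Scx, Tnmd, Mkx and Thbs4, were all abundant enough to test. Their summed level was 225 to 337 CPM with compound 33 and 258 to 440 CPM with DMSO. Most of it was Thbs4, at 197 to 306 CPM with compound 33 and 225 to 398 CPM with DMSO. The part of cartilage or tendon cells in the Comp level was not tested.

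Thbs3 (ENSMUSG00000028047.11), on the plus strand of chromosome 3 at 89215180 to 89226837, was the least abundant, with 6.72, 14.1 and 11.3 CPM with compound 33, against 14.8, 10.8 and 12.5 CPM with DMSO. These are 11 to 34 reads with compound 33 and 24 to 36 reads with DMSO, and the groups overlapped. The log2 fold change was -0.22 (95% interval -0.97 to 0.54, edgeR adjusted p = 0.945), an interval that leaves room for a change of up to 1.96-fold downward at this depth. Exons of Thbs3 overlap exons of Mtx1 on the other strand. No source used here states whether counting used the strand, so reads of this pair cannot be told apart. The same holds for Fn1 with Apol7d, Tnc with 8030451A03Rik and Thbs1 with Gm29233, while Spp1 shares exon sequence with Gm42793 on its own strand.

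**Figure D3:**
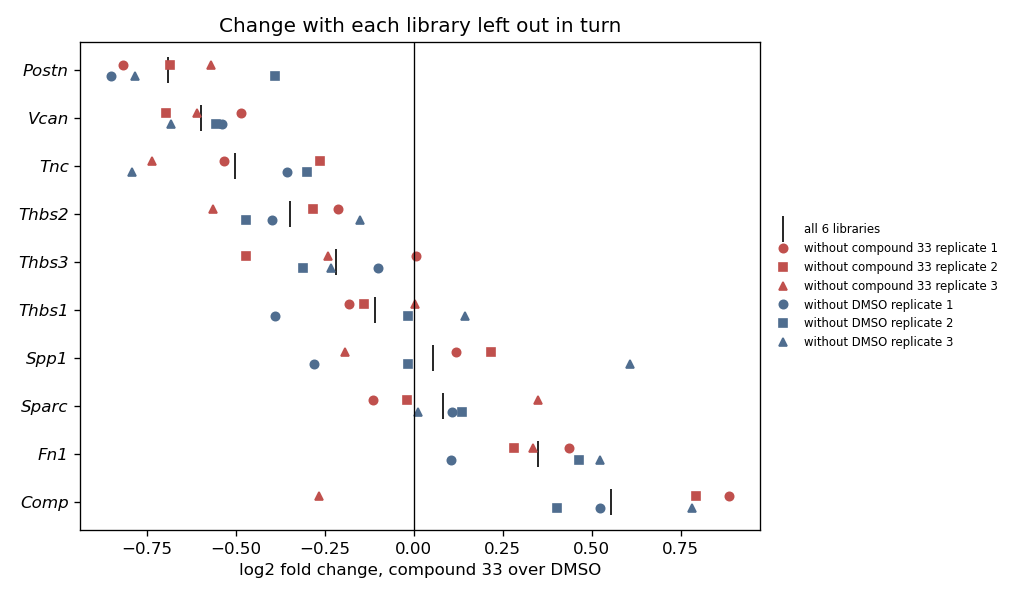
Log2 fold change of each gene, compound 33 over DMSO, with all 6 libraries (black bar) and with each library left out in turn (symbols by replicate, colours by group). Postn, Vcan, Tnc, Thbs2 and Fn1 keep their sign whichever library is left out, while Thbs3, Thbs1, Spp1, Sparc and Comp do not.

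The libraries did not move these genes together. DMSO replicate 1 was the lowest of its group for Fn1, Thbs1, Spp1 and Postn and the highest for Vcan and Thbs3. Compound 33 replicate 3 was the lowest of its group for Postn, Sparc and Thbs1 and the highest for Tnc, Spp1, Thbs2 and Comp. Likeness between profiles was measured as the root mean square difference of centred log2 CPM over the 6 libraries, among 3878 other genes with a mean of at least 50 CPM. The genes nearest to Fn1 were Midn, Foxn3 and Stk38l, at 0.026 to 0.078. Nearest to Postn were Snx3, Arf1 and Rnf7, at 0.112 to 0.126. Dad1 and Myo5a were nearest to Vcan, at 0.102 and 0.108. Vcan was 529th in the order of likeness to Postn, at 0.353, and the nearest member to Fn1, Thbs1, was 409th.

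Further matricellular genes were described as a list chosen by function. Of 26 listed genes 17 were tested, 11 of them below 0 and 6 above, where 51.1% of all genes tested were below 0. Their median log2 fold change was -0.29, against -0.01 over all genes, and 0 passed an adjusted p under 0.05. Under an unadjusted 0.05 were 3 lower and 1 higher, where 3.23% of all genes were lower and 3.64% higher. Tnn, or tenascin-W, had 1.83, 1.66 and 0 CPM with compound 33, against 7.42, 5.41 and 5.22 CPM with DMSO (log2 fold change -2.30, edgeR adjusted p = 0.486). Tgfbi, a relative of periostin with the same repeated fasciclin domains, had 7.95, 7.05 and 8.24 CPM with compound 33, against 12.2, 33.8 and 15.3 CPM with DMSO (log2 fold change -1.40, edgeR adjusted p = 0.500). For both, all compound 33 libraries lay below all DMSO libraries, at low levels. Without overlap, 3 of the 17 tested genes were lower and 0 higher, where 6.73% of all genes were lower and 6.64% higher. Smoc2, which shares the calcium-binding domain of SPARC, stood at 414 ± 44.2 CPM with compound 33 and 616 ± 198 CPM with DMSO (SD, n = 3 each). Nov, which encodes CCN3, had 53.2, 34.4 and 73.1 CPM with compound 33, against 29.7, 18.5 and 42.5 CPM with DMSO, and for Smoc2 and Nov the libraries overlapped. The log2 fold change of Smoc2 was -0.57, or -0.34 without DMSO replicate 3, and its unadjusted p was above 0.05 in limma-voom, with the replicate block and in 5 of 6 fits without 1 library. That of Nov was 0.81, or 0.52 without compound 33 replicate 3, and its unadjusted p was above 0.05 in 4 of 6 such fits. The thrombospondin Thbs4, closest in structure to COMP, had 197, 306 and 207 CPM with compound 33, against 225, 398 and 307 CPM with DMSO (log2 fold change -0.39, edgeR adjusted p = 0.834). Its mean over all libraries was 11.4 times that of Comp, and its groups overlapped.

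Receptors of these proteins lay on both sides of 0. Of 23 listed genes 16 were tested, 6 below 0 and 10 above, with a median log2 fold change of 0.07 against -0.01 over all genes, and 0 passed at the adjusted threshold. Itgb5, the β chain of integrin αvβ5, which binds periostin, osteopontin and vitronectin, had 622, 539 and 711 CPM with compound 33, against 205, 378 and 356 CPM with DMSO (log2 fold change 1.00, edgeR adjusted p = 0.401). Lrp1, the endocytic receptor that clears thrombospondins and proteases, had 201, 225 and 259 CPM with compound 33, against 129, 166 and 166 CPM with DMSO (log2 fold change 0.57, edgeR adjusted p = 0.649). In both genes every compound 33 library was above every DMSO library, and they were the only 2 receptors under an unadjusted 0.05. Over all genes tested, 3.64% were higher at that threshold and 6.64% were higher without overlap. The scavenger receptor Cd36, to which thrombospondin 1 binds, had 6 reads in all and was not tested.

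The hyaluronan partners of versican were mostly too low to test, with 3 of 11 listed genes tested, 2 of them below 0 and 1 above, and 0 past the adjusted threshold. The 2 below 0 were under an unadjusted 0.05, where 3.23% of all genes were lower. Has2, a hyaluronan synthase, had 11.6, 13.3 and 9.78 CPM with compound 33, against 29.2, 32.0 and 24.0 CPM with DMSO (log2 fold change -1.28, edgeR adjusted p = 0.266). Tnfaip6, or TSG-6, which transfers heavy chains onto hyaluronan, had 3.06, 2.90 and 4.12 CPM with compound 33, against 11.1, 7.22 and 8.70 CPM with DMSO (log2 fold change -1.41, edgeR adjusted p = 0.505). For both, all compound 33 libraries lay below all DMSO libraries, as in 6.73% of all genes. Hapln4, a hyaluronan link protein, averaged 8.68 CPM with compound 33 and 6.48 CPM with DMSO, and its groups overlapped. Exons of Has2 overlap those of Has2os on the opposite strand.

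Of 20 listed proteases that cut these proteins 15 were tested, 10 below 0 and 5 above, with a median log2 fold change of -0.14 against -0.01 over all genes, and 0 passed at the adjusted threshold. Adamts12, which cleaves COMP, stood at 16.5 ± 2.89 CPM with compound 33 and 29.8 ± 4.90 CPM with DMSO. Mmp3, or stromelysin, which cleaves fibronectin among other matrix proteins, stood at 1139 ± 267 CPM with compound 33 and 1790 ± 95.5 CPM with DMSO. The log2 fold change was -0.84 for Adamts12 (edgeR adjusted p = 0.557) and -0.65 for Mmp3 (edgeR adjusted p = 0.607). Without compound 33 replicate 2 the unadjusted p of Mmp3 was above 0.05. Plat, the tissue plasminogen activator, stood at 30.4 ± 5.40 CPM with compound 33 and 75.1 ± 14.8 CPM with DMSO (log2 fold change -1.31). Its adjusted p was 0.212 in edgeR and 0.00696 in DESeq2. In edgeR it also passed without a low-count filter (adjusted p = 0.0113) and without DMSO replicate 1 (adjusted p = 0.0485), and over all alternatives run the adjusted p lay between 0.00696 and 0.684. In the opposite direction, Htra1, a secreted serine protease that cleaves fibronectin, stood at 232 ± 32.4 CPM with compound 33 and 127 ± 24.6 CPM with DMSO (log2 fold change 0.87, edgeR adjusted p = 0.401; SD, n = 3 each for all 4 genes). These 4 genes, 3 lower and 1 higher, were those under an unadjusted 0.05, and the groups of each were apart. Over all genes tested, 3.23% were lower and 3.64% higher at that threshold, and 6.73% were lower and 6.64% higher without overlap.

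Collagens and other partners in matrix assembly had 11 of 13 tested members below 0, where 51.1% of all genes were, and a median log2 fold change of -0.28, against -0.01 over all genes. None of them passed at the adjusted threshold. Col12a1, a fibril-associated collagen that binds tenascins, stood at 81.4 ± 19.2 CPM with compound 33 and 127 ± 20.2 CPM with DMSO (SD, n = 3 each), a log2 fold change of -0.64 with an adjusted p of 0.649 by edgeR. It was the only gene of that list under an unadjusted 0.05, and it was above 0.05 without DMSO replicate 3 and without compound 33 replicate 1. Over all genes tested, 3.23% were lower and 3.64% higher at that threshold. Without overlap, 2 of the 13 were lower and 0 higher, against 6.73% and 6.64% of all genes. No claim is made that any of these lists differs from other genes, since the lists were described by counts and medians and not tested.

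**Figure D4:**
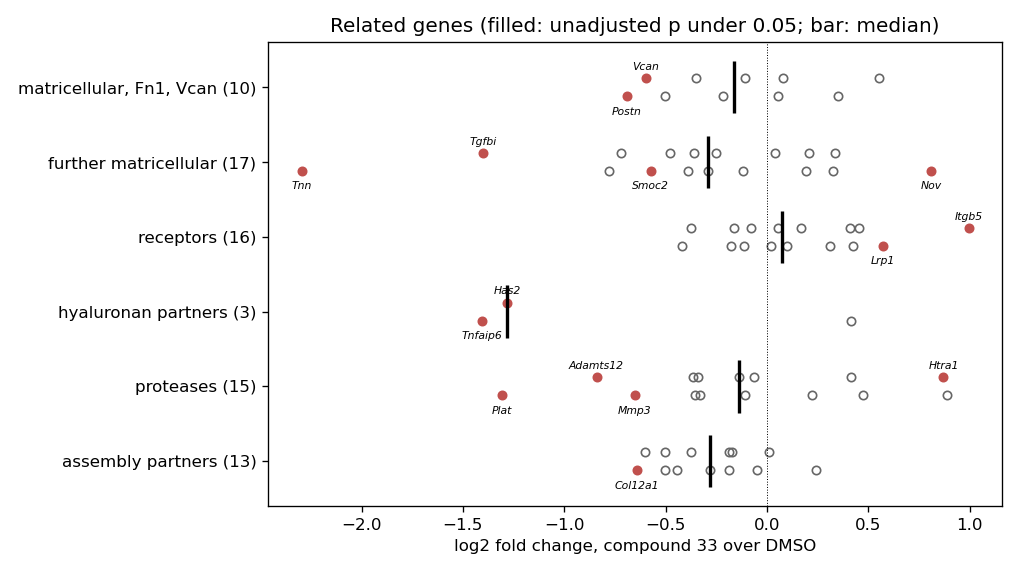
Log2 fold change, compound 33 over DMSO, of the 10 genes and of 5 lists of related genes, with the number of tested genes in brackets; each circle is a gene, filled where the unadjusted edgeR p is under 0.05, and the bar is the median. Filled circles lie on both sides of 0, and none of these genes passed edgeR's test after adjustment over all genes.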

How the data were processed

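Per the labels' protocols, RNA with an integrity number above 7 was made into QuantSeq 3′ mRNA libraries and sequenced on an Ion Proton instrument. Build mm10, HISAT2 2.2.1, featureCounts 2.0.3, FastQC 0.11.9 and DESeq2 appear in the submitters' processing notes; no source used here gives the annotation or strand setting. The authors deposited whole-number read counts per gene symbol without normalization. Their own comparison, also deposited, comes with the mean normalized count as a signal, the log2 fold change and its error, the Wald statistic as a score, and the p-value and adjusted p-value.

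Counts were tested in R 4.3.3 with edgeR 4.0.16 (filterByExpr with a minimum count of 10, TMM scaling, robust quasi-likelihood F test, two-sided, group as the only term) over all 6 libraries. P-values were adjusted by the Benjamini-Hochberg method over 10124 genes, with a threshold of 0.05. Standard errors were derived from the unshrunk estimate and F. limma 3.58.1 and DESeq2 1.42.0 served as alternatives, beside other scalings, filters, a replicate block and each library left out. The fit was tested on simulated data. No library was a repeat of another within sampling noise: the chi-square per degree of freedom within groups was at least 4.34. All 6 were counted as samples. Intervals of levels are not given; each group's precision rests on 3 libraries. Coordinates and exon overlaps come from GENCODE M21 on the same build, counted from 1.

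Named are all 10 members, related genes under an unadjusted p of 0.05, and up to 3 of the most similar genes for Fn1, Postn and Vcan (1 gene is not reported here); Thbs4, Cd36, Lyz2, Cd14, Adgre1, Ptprc, Hapln4 and the cell type markers given were named after their values were seen. The members and lists were chosen with earlier results of these data known.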

Additional observations from a re-analysis of the deposited data

How the results depend on the processing

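None of the 10 genes passed an adjusted p of 0.05 under any of the alternatives run. Their log2 fold changes kept their sign in 140 of 149 member-by-alternative values, and the 9 that turned all came from leaving out 1 library; other scalings, filters and tools turned none. Spp1 turned to -0.28 without DMSO replicate 1, -0.02 without DMSO replicate 2 and -0.19 without compound 33 replicate 3. Sparc turned to -0.12 without compound 33 replicate 1 and -0.02 without compound 33 replicate 2, and Thbs1 to 0.14 without DMSO replicate 3 and 0.0030 without compound 33 replicate 3. Thbs3 turned to 0.0060 without compound 33 replicate 1 and Comp to -0.27 without compound 33 replicate 3. At the other end, leaving out 1 library gave at most 0.61 for Spp1, 0.35 for Sparc and 0.89 for Comp, and as low as -0.39 for Thbs1 and -0.47 for Thbs3. The count of members under an unadjusted 0.05 was 2, and leaving out each library in turn gave 1 to 3. They were Postn and Comp, Comp being higher, without compound 33 replicate 1, Vcan and Thbs2 without compound 33 replicate 3, and Vcan, Postn and Tnc without DMSO replicate 3. The count of all genes past the adjusted threshold was 3, and with each library left out 1 to 7. It was 21 without a low-count filter and 18 in DESeq2; the cause was not tested. With the replicate block it was 7, and Postn (log2 fold change -0.66) and Vcan (-0.60) kept an unadjusted p under 0.05. Replicate numbers were not shown to pair libraries: deviations of same-numbered libraries correlated at -0.03, 0.21 and 0.08 across genes, and 1 of 3 compound 33 libraries correlated best with its own number. Thbs3 could not be fitted at a minimum count of 30. Thbs3, with 11 to 36 reads a library, was the member with the fewest reads.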
